A study of Mus musculus with 12 samples.

Results

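The genes described here are 8 genes of the ATF4 arm of the integrated stress response: Chac1, Slc1a4, Atf4, Ddit3, Trib3, Asns, Sesn2 and Slc7a11. They were taken by gene symbol from a table of 23235 genes, and all 8 had a row there; Chac1 was at 0 in 1 of the 12 libraries and Trib3 in 2. The libraries came from spermatocytes of C57BL/6 mice, obtained by fluorescence-activated cell sorting and sequenced from amplified cDNA. Stage and genotype gave 4 groups of 3 libraries, and they differed in nothing else that is labelled: wild type (WT) leptotene/zygotene (LZ), Rnaseh1 knock-out (KO-labelled) LZ, WT pachytene (P) and KO-labelled P. LZ cells are beginning to pair their chromosomes in the first meiotic prophase, and P cells have completed pairing. RNase H1 removes RNA that is base-paired with DNA, as in R-loops. The promoter driving any Cre, the age of the mice and the animals behind each library are not given in the sources used here, so p-values measure the spread between libraries, which may be technical in part.

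The integrated stress response converges on phosphorylation of the translation factor eIF2alpha, which lowers general protein synthesis while translation of the Atf4 mRNA goes up. The ATF4 protein, alone or with partners such as C/EBP proteins and CHOP (encoded by Ddit3), activates genes for amino acid import, amino acid synthesis, tRNA charging and glutathione metabolism. Because ATF4 is controlled largely in translation, the level of its mRNA does not measure the amount of the protein. Trib3 encodes a pseudokinase that restrains ATF4 and CHOP, and Sesn2 encodes a leucine-sensing inhibitor of the growth kinase complex mTORC1. Slc1a4 encodes a transporter of small neutral amino acids, and Slc7a11 the cystine/glutamate exchanger that supplies cysteine for glutathione. Asns makes asparagine, and Chac1 degrades glutathione in the cytosol.

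Many ATF4 targets carry a composite C/EBP-ATF response element, whose core was searched as TGATGNAA on both strands (TTNCATCA as read on the opposite strand). RefSeq promoters of the mouse build GRCm38.p6 were used, each running from 250 bases before to 50 bases after the annotated start, and all 8 genes were matched by symbol. The core was present in 5 of the 8 promoters and in 1304 of 32851 promoters of the table (3.97%). The 8 genes were taken as genes of the ATF4 arm, many of whose targets carry this element. The share among the 8 is therefore not a test, and the matches are shown as sequences only. Each window below reads 5′ to 3′ along the gene's own strand, with the matched bases in capitals.
Chac1: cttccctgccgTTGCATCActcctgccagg
Slc1a4: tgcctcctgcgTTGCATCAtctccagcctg
Trib3: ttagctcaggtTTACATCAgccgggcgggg
Asns: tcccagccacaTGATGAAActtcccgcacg
Slc7a11, distal: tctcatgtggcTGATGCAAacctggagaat
Slc7a11, proximal: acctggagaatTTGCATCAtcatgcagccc

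The Chac1 window lies at chr2:119351038-119351067 on the plus strand, with the match at -193 to -186 from the start. The Slc1a4 window lies at chr11:20332699-20332728 on the minus strand, and its match spans the start itself, from -4 to 4. Chac1 and Slc1a4 carry the same 8 matched letters, TTGCATCA, which are also those of the proximal Slc7a11 match. The Trib3 window is at chr2:152344028-152344057 (minus strand), with the match just inside the transcript at 15 to 22. The Asns window is at chr6:7693214-7693243 (minus strand), with the match at -23 to -16. The Slc7a11 promoter was the only one of the 8 with 2 matches, at chr3:50443661-50443690 and chr3:50443642-50443671 (minus strand), at -66 to -59 and -47 to -40. No match lay in the windows of Atf4, Ddit3 or Sesn2. A second motif, TGACNNNGC (the core of the antioxidant response element), was present in 4071 of the 32851 promoters (12.4%) and, among the 8, in those of Asns and Sesn2. A match is a string of letters, and binding was not measured here.

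Values are FPKM (fragments per kilobase of transcript, relative to the fragments mapped) that the authors scaled between libraries with ERCC spike-in RNA. The scaled values summed to 609831 to 885259 in WT LZ libraries, 430372 to 512468 in KO-labelled LZ, 3319970 to 4183730 in WT P and 4811570 to 6702160 in KO-labelled P. Changes are log2 differences of value + 1 from a linear model over all 12 libraries, which understate the change of genes near or below 1. A gene was called where limma's two-sided test gave a p under 0.05 after Benjamini-Hochberg adjustment, over the 15400 genes with at least 1 in at least 3 libraries. Because most genes moved with the scaled total, each change is also given relative to the median of all tested genes. It is also given after a rescaling by median ratios, which removes that shared shift. The 1 is added after this rescaling, which therefore also alters how far the changes of genes near or below 1 are flattened. Rnaseh1 itself was at 16.1 to 20.5 in WT LZ and 11 to 18.3 in KO-labelled LZ, and at 51.7 to 56.8 in WT P and 68.9 to 94.3 in KO-labelled P. It was not called lower in the KO-labelled libraries at either stage (log2 change -0.28, SE 0.23, adjusted p = 0.407 in limma at LZ, and 0.56, SE 0.23, adjusted p = 0.0638 at P), and the table does not say which part of the gene was deleted.

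Markers of other testis cells also differed between the groups. Of 7 round spermatid markers, 7 were called lower in KO-labelled P libraries under both scalings (summed level 1697 to 9315, against 36824 to 44891 in WT P; 14.3% of all genes were called lower). At LZ 5 of them were called lower in KO-labelled libraries (778 to 5410 against 14529 to 31607; 12.9% of all genes were called lower), and 0 after median-ratio scaling. Of 8 pachytene markers, 5 were called higher in KO-labelled P libraries (50523 to 79038 against 28302 to 37059; 24.6% of all genes), and 2 after median ratios. Of 6 spermatogonial markers, 5 were called lower there (17.3 to 41.8 against 135 to 167), and 4 after median ratios. Sertoli cell markers, of which 0 of 7 were called at either stage with spike-in scaling, summed to 229 to 555 in WT LZ, 281 to 699 in KO-labelled LZ, 788 to 1084 in WT P and 523 to 588 in KO-labelled P. Summed Leydig cell markers were at 2292 to 8622 in WT P and 1242 to 5347 in KO-labelled P, against 3.74 to 17.1 in WT LZ and 3.38 to 89.1 in KO-labelled LZ, where Lhcgr and Hsd17b3 were at 0 in all WT libraries. Insl3 made up most of the sum at P, with means of 5710 in WT and 3338 in KO-labelled libraries. Of the 7 Leydig markers, 2 were called higher and 0 lower in KO-labelled P (24.6% of all genes were called higher), and 1 higher after median ratios. Peritubular and endothelial markers summed to 542 to 703 in WT P and 176 to 221 in KO-labelled P, against 2.06 to 30.3 in WT LZ. The part of these cells in the values of the 8 genes was not tested, and in sorted bulk RNA fewer cells of a type and less RNA per cell cannot be told apart.

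The 8 genes were chosen with earlier results of these data known, and the measure that chose them is not recorded. Chac1 and Slc1a4 are treated here as selected on their FPKM in KO-labelled against WT P, where both stood near the top. Among 4095 genes called with non-overlapping groups and a group mean of at least 5 in KO-labelled against WT P, Slc1a4 stood in place 6 and Chac1 in place 12 from the highest. Values of the 8 genes at P, and in comparisons that share those libraries, are therefore a description without a test. The comparison at LZ takes its changes from other libraries and is tested on that reading. Its SE comes from the fit over all 12 libraries, those at P included, so its p-values are not independent of the choice. If values at LZ also entered the choice, its p-values are too small.

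Atf4 was expressed in every library. It measured 49.1, 37.8 and 28.5 in WT LZ (38.5 ± 10.4, SD, n = 3) and 23.4, 43.2 and 48 in KO-labelled LZ (38.2 ± 13). At P it measured 178, 173 and 249 in WT (200 ± 42.3) and 357, 340 and 315 in KO-labelled libraries (337 ± 20.7). The LZ groups overlapped almost wholly, both P groups lay above both LZ groups, and all 3 KO-labelled P libraries lay above all 3 WT P libraries. The ratio of means at P was 1.69.

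Ddit3, which encodes CHOP, had the highest level of the 8 per transcript length in each group. It measured 93.5, 117 and 59.1 in WT LZ (89.9 ± 29.1) and 44.7, 50.1 and 56.1 in KO-labelled LZ (50.3 ± 5.71). The P values were 790, 1081 and 1180 in WT (1017 ± 203) and 2488, 2157 and 1575 in KO-labelled libraries (2074 ± 462). The KO-labelled libraries were thus the lower group at LZ and the higher group at P, without overlap at either stage. From LZ to P the mean went up 11.3-fold in WT and 41.2-fold in KO-labelled libraries.

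Trib3, the inhibitor, was low throughout. It measured 0.764, 0.154 and 0.815 in WT LZ (0.578 ± 0.368) and 0.488, 1.43 and 0.18 in KO-labelled LZ (0.701 ± 0.653). Its P values were 3.49, 1.25 and 0.873 in WT (1.87 ± 1.41) and 0, 0 and 0.253 in KO-labelled libraries (0.0843 ± 0.146). The KO-labelled P libraries lay below every WT P library, the opposite side from Atf4 and Ddit3, and WT P replicate 1 was well above the other libraries of its group.

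Slc1a4, the neutral amino acid transporter, was near 0 in WT LZ, at 0.0505, 0.363 and 0.194 (0.203 ± 0.157), and higher in each KO-labelled LZ library, at 0.727, 1.36 and 2.95 (1.68 ± 1.15). In WT P it measured 0.692, 1.03 and 0.938 (0.887 ± 0.175), and in KO-labelled P 18.1, 17.1 and 13.7 (16.3 ± 2.33). It was the one gene of the 8 whose KO-labelled libraries lay above all WT libraries at both stages. The ratio of means was 8.28 at LZ and 18.4 at P.

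Slc7a11, the cystine/glutamate exchanger, stayed at or below about 1 and did not pass the filter on low values. It measured 0.135, 0.0316 and 0.14 in WT LZ (0.102 ± 0.0614) and 0.0187, 0.14 and 0.0517 in KO-labelled LZ (0.0701 ± 0.0627). At P it measured 0.535, 0.113 and 1.01 in WT (0.554 ± 0.45) and 0.651, 1.05 and 0.673 in KO-labelled libraries (0.791 ± 0.224). The genotypes overlapped at both stages, although its promoter window held 2 copies of the core.

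Chac1, the glutathione-degrading enzyme, measured 2.41, 0 and 0.794 in WT LZ (1.07 ± 1.23) and 1.57, 0.22 and 1.37 in KO-labelled LZ (1.05 ± 0.727). P libraries gave 0.943, 3.75 and 1.77 in WT (2.15 ± 1.44) and 12.9, 14.7 and 14.7 in KO-labelled libraries (14.1 ± 1.03). The 3 KO-labelled P libraries stood above the other 9, which overlapped across their groups. The ratio of means at P was 6.55, and at LZ it was 0.984.

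Asns, asparagine synthetase, measured 47.6, 30.8 and 39.9 in WT LZ (39.4 ± 8.39) and 39.1, 25.5 and 30.5 in KO-labelled LZ (31.7 ± 6.89). At P it measured 102, 57.9 and 92.3 in WT (83.9 ± 23) and 36.1, 29.4 and 52.3 in KO-labelled libraries (39.3 ± 11.8). WT P was the high group, and KO-labelled P lay within the range of LZ but for its replicate 3. The ratio of KO-labelled to WT means at P was 0.468.

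Sesn2, the mTORC1 inhibitor, measured 3.03, 3.11 and 2.73 in WT LZ (2.96 ± 0.201) and 3.43, 2.48 and 6.79 in KO-labelled LZ (4.23 ± 2.27). At P it measured 5.38, 3.44 and 8.88 in WT (5.9 ± 2.75) and 11.6, 9.77 and 4 in KO-labelled libraries (8.45 ± 3.96). The genotypes overlapped at both stages.

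**Figure D1:**
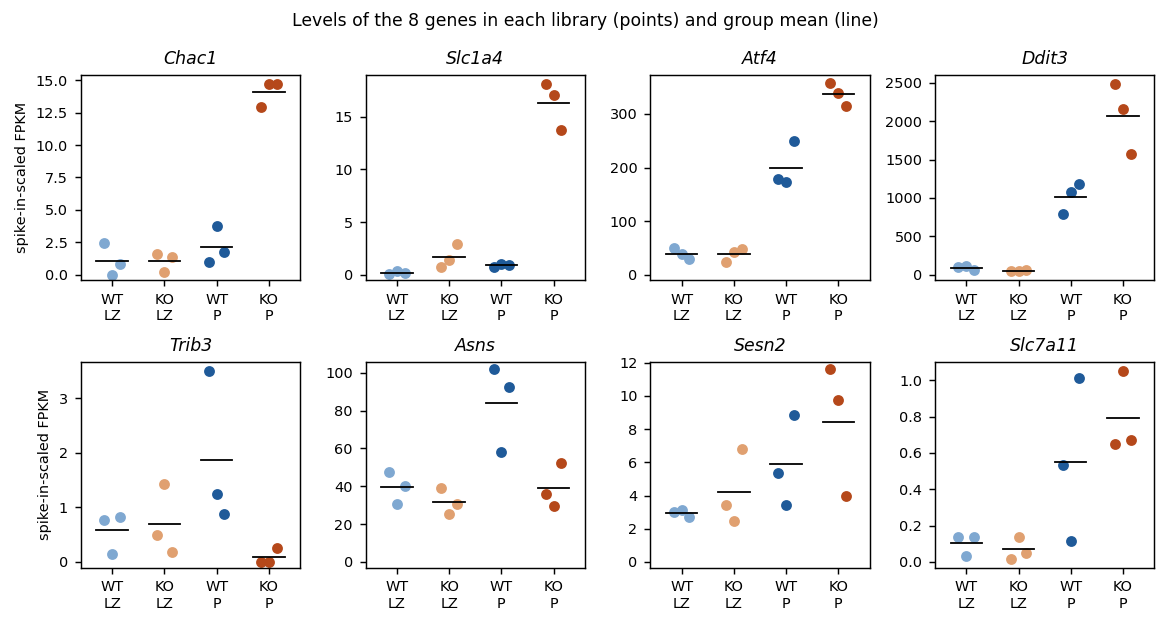
Spike-in-scaled FPKM of the 8 genes in each library (points) with group means (lines), each gene in a panel with its own axis, by group (WT and KO-labelled at LZ and P, 3 libraries each). The KO-labelled P libraries of Chac1 sit between 12.9 and 14.7 and those of Slc1a4 between 13.7 and 18.1, above the other 9 libraries of each gene, while those of Trib3 and Asns sit below WT P.

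For 287 of 400 low genes tried (71.8%) the FPKM values were whole multiples of the value of 1 fragment in each library, within 0.05, and fragment numbers could be read back for 7 of the 8 genes (all but Ddit3), within 0.0026 of a whole number. One fragment was worth 0.641 to 1 in WT LZ libraries relative to WT LZ replicate 1, 0.599 to 0.708 in KO-labelled LZ, 2.72 to 3.42 in WT P and 4.97 to 5.92 in KO-labelled P. A given FPKM thus rested on fewer fragments at P, and on fewest in KO-labelled P. The libraries were made from amplified cDNA, so limits and intervals from these numbers cover counting error only.

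Chac1 rested on 35, 0 and 18 fragments in WT LZ and on 38, 5 and 28 in KO-labelled LZ. It had 4, 20 and 9 fragments in WT P and 36, 36 and 43 in KO-labelled P. With 33 against 115 fragments in all, the spike-in-scaled ratio at P was 6.26. The 0 in WT LZ replicate 2 allows up to 0.157 FPKM, the worth of 3 fragments there.

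Slc1a4 went from 2, 19 and 12 fragments in WT LZ to 48, 84 and 165 in KO-labelled LZ. At P it had 8, 15 and 13 in WT and 138, 114 and 109 in KO-labelled libraries. With 36 against 361 fragments, the scaled ratio was 18.1. The LZ difference in this gene thus rested on more than a few fragments in each KO-labelled library.

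Trib3 had 20, 9 and 6 fragments in WT P and 0, 0 and 1 in KO-labelled P. The scaled ratio was 0.0513, and with 1 fragment on one side its 95% exact binomial interval ran from 0.00126 to 0.305, given as counting error and not as a test. The zeros allow up to 0.795 FPKM in KO-labelled P replicate 1 and 0.903 in replicate 2, close to the lowest WT P value of 0.873. At LZ its fragments numbered 15, 4 and 25 in WT and 16, 44 and 5 in KO-labelled libraries. Asns, a gene of the middle range, had 544, 390 and 592 fragments in WT P and 127, 91 and 193 in KO-labelled P. Atf4 had 842, 1029 and 1408 fragments in WT P and 1108, 930 and 1027 in KO-labelled P, which overlapped. The value of 1 fragment holds both the depth of a library and its spike-in scaling, which cannot be told apart here. Fragment numbers alone therefore do not compare the levels of Atf4 between groups. After median-ratio scaling its change at P was 0.42.

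**Figure D2:**
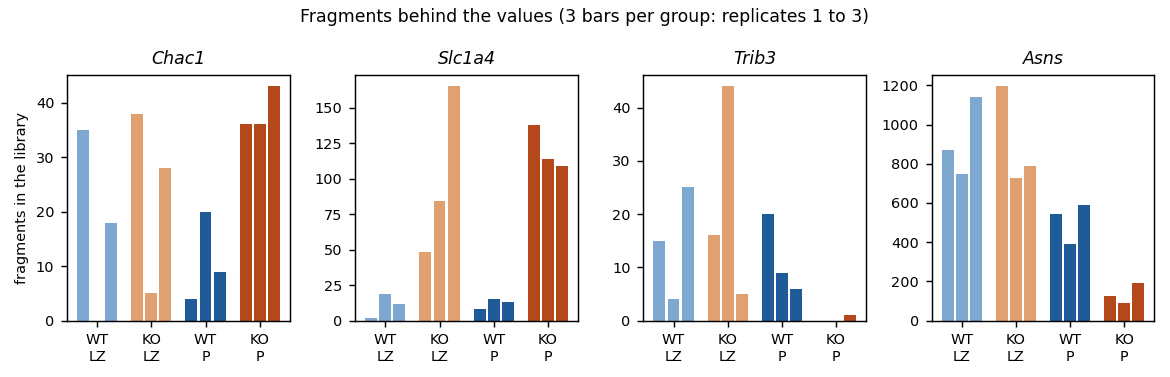
Number of sequenced fragments (vertical axis, each from 0) behind the values of Chac1, Slc1a4, Trib3 and Asns, with 1 bar per library in the order of replicates 1 to 3 and a missing bar for 0, by group. Chac1 has 36 to 43 fragments in KO-labelled P against 4 to 20 in WT P, and Trib3 has 0 or 1 against 6 to 20.

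The first tested question was whether the KO-labelled label goes with a change of these genes at LZ. Of the 7 genes tested, 1 was called higher, Slc1a4, and 0 were called lower, while of all genes 13.1% were called, 0.136% higher and 12.9% lower. Slc1a4 was higher by 1.08 (SE 0.30, adjusted p = 0.0351 in limma) and by 1.51 relative to the median of all genes, which was -0.43. After median-ratio scaling its change was 1.91 (adjusted p = 0.0236), where 0.39% of all genes were called higher. That rescaling raises the LZ values before the 1 is added, so a low gene such as Slc1a4 is flattened less there. All 3 KO-labelled LZ libraries lay above all 3 WT LZ libraries for Slc1a4, as for 0.935% of all tested genes, and below them for Ddit3, as for 36.5%. The call was lost when the 6 LZ libraries were fitted without the others (adjusted p = 0.0911), without KO-labelled replicate 2 (1.13, adjusted p = 0.0802) or replicate 3 (0.75, 0.0945), and without WT replicate 1 (0.98, 0.128) or replicate 2 (1.17, 0.0954).

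The Sertoli cell markers moved the same way at LZ without passing the test, with a median change of 0.88 relative to all genes (1.03 after median ratios). Other somatic lists also had no call, with Leydig markers at 0.74 (0.76 after median ratios) and peritubular and endothelial markers at 0.46 (0.38). Macrophage and blood markers were at 0.00 (-0.30). Across KO-labelled LZ replicates 1 to 3, where Slc1a4 was at 0.727, 1.36 and 2.95, Cldn11 was at 17, 39 and 62.5 and Wt1 at 3.2, 5.73 and 11.2. This order was not particular to Sertoli markers. Fos, a factor related to ATF4, was at 2.51, 12.8 and 22.6, while the Leydig marker Insl3 went the other way, at 68, 2.04 and 1.74. In WT LZ, where Slc1a4 was at 0.0505, 0.363 and 0.194, Cldn11 was at 34.2, 13.3 and 9.71. At P the Sertoli sums were lower in KO-labelled libraries while Slc1a4 was higher. The genes named here were singled out after their values were seen, and the part of the marked cells in the Slc1a4 call at LZ was not tested.

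Ddit3 did not pass the test at LZ, with a change of -0.78 (SE 0.26, adjusted p = 0.0646 in limma), -0.35 relative to the median and -0.20 after median ratios (adjusted p = 0.608). It passed only when WT LZ replicate 3 was left out (-1.05, adjusted p = 0.0203). Chac1 had a change of 0.09 (SE 0.45, adjusted p = 0.908), Atf4 of -0.04 (SE 0.28, adjusted p = 0.941) and Trib3 of 0.07 (SE 0.36, adjusted p = 0.912). Sesn2 had 0.32 (SE 0.40) and Asns -0.31 (SE 0.29), neither called. The sign of Atf4 and Asns depended on the scaling, at 0.54 and 0.27 after median ratios.

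At P the 8 genes went in different directions in KO-labelled libraries. Slc1a4, Chac1, Ddit3 and Atf4 had all 3 KO-labelled libraries above all 3 WT libraries, Trib3 and Asns had all 3 below, and Sesn2 and Slc7a11 overlapped. Over all tested genes 36.4% had all 3 above and 18% all 3 below, and nothing is read from the count, since this comparison is taken to have chosen Chac1 and Slc1a4. Slc1a4 had a log2 change of 3.19 (SE 0.30), place 14 from the highest of 15400, and Chac1 2.36 (SE 0.45), place 26. Ddit3 had 1.02 (SE 0.26) and Atf4 0.77 (SE 0.28). Against the median of all genes, 0.37, these 4 changes were 2.82, 1.99, 0.65 and 0.40.

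On the other side, Trib3 had -1.30 (SE 0.36) and Asns -1.08 (SE 0.29), or -1.67 and -1.45 relative to the median. Sesn2 had 0.42 (SE 0.40), which was 0.05 relative to the median. After median-ratio scaling the 7 tested genes kept their signs, at 2.28 for Slc1a4, 1.65 for Chac1, 0.67 for Ddit3, 0.42 for Atf4, 0.11 for Sesn2, -0.80 for Trib3 and -1.38 for Asns. That rescaling lowers the P values before the 1 is added, so a low gene such as Trib3 is flattened more there. Slc1a4 and Chac1, at the top, and Trib3 and Asns, at the bottom, all had the C/EBP-ATF core in the promoter windows shown above.

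From LZ to P in WT libraries most genes of the table went up on the spike-in scale, with a median change of 1.64. Of the 8 genes, 6 (Slc1a4, Atf4, Ddit3, Trib3, Asns and Sesn2) had all P libraries above all LZ libraries, beside 83% of all tested genes. Ddit3 had 3.52 (SE 0.26) and Atf4 2.36 (SE 0.28), or 1.88 and 0.72 relative to the median. On the log2(value + 1) scale the other 5 tested genes were below the median, from -0.59 for Asns to -0.98 for Slc1a4. The added 1 flattens the changes of low genes such as Slc1a4 and Trib3, whose ratios of means were 4.38 and 3.23. With 0.1 added instead, Slc1a4 was at 1.83 and Chac1 at 1.69. The side of the median is therefore not read for these low genes. After median-ratio scaling Ddit3 was at 1.47 and Atf4 at 0.33, while Chac1 (from 0.69 to -0.32), Trib3 (from 0.78 to -0.17), Asns (from 1.05 to -0.96) and Sesn2 (from 0.73 to -0.90) changed sign, and Slc1a4 was at 0.03.

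In KO-labelled libraries the median change from LZ to P was 2.29. Chac1 had 2.95, Slc1a4 2.77, Atf4 3.17 and Ddit3 5.32, which were 0.66, 0.47, 0.88 and 3.02 above the median. These 4 and Slc7a11 had all P libraries above all LZ libraries, as had 75.9% of all tested genes. Trib3 (-0.59), Asns (0.28) and Sesn2 (0.83) lay below the median by 2.88, 2.01 and 1.46. These comparisons share libraries with those between genotypes.

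The KO effect at P minus that at LZ had a median of 0.72 over all genes. Chac1 had 2.26 (SE 0.63), Slc1a4 2.11 (SE 0.42) and Ddit3 1.80 (SE 0.37), or 1.55, 1.40 and 1.08 relative to the median, and 1.12, 0.37 and 0.88 after median-ratio scaling. Atf4 had 0.81 (SE 0.40), at 0.09 relative to the median and -0.12 after median ratios. Trib3 had -1.37 (SE 0.50) and Asns -0.77 (SE 0.41), and after median ratios -1.21 and -1.64. For Slc1a4 the size of this difference thus depended on the scaling. It also depended on the added 1, which flattens the low LZ values. The ratio of means was 8.28 at LZ, where the fit gave 1.08, and 18.4 at P, where it gave 3.19. With 0.1 added instead, the changes of Slc1a4 were 2.50 at LZ and 4.06 at P.

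**Figure D3:**
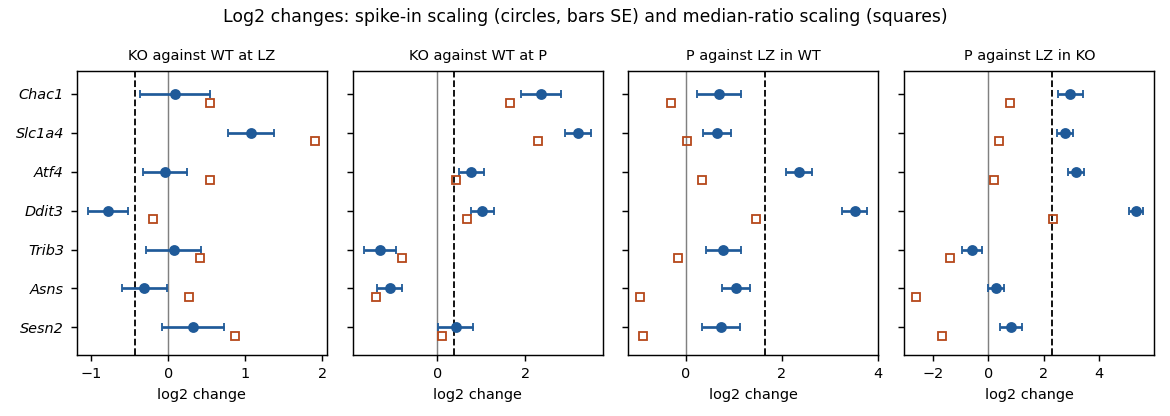
Log2 change of each tested gene in the comparisons of genotype and stage, with spike-in scaling (circles, bars are 1 SE) and after median-ratio scaling (squares); the dashed line is the median of all genes with spike-in scaling. At P, Slc1a4 (3.19) and Chac1 (2.36) lie far to the right and Trib3 (-1.30) and Asns (-1.08) to the left under both scalings, while in the WT stage comparison Asns moves from 1.05 to -0.96.

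The other genes of the pathway were taken from 11 lists of 136 genes, of which 124 were tested. The lists were chosen with earlier results of these data known, so their calls are not an independent test. At P, 53 of the 124 were called higher and 9 lower, 62 in all, beside 24.6% and 14.3% of all genes (38.8% together). After median-ratio scaling 16 were called higher and 9 lower, beside 3.57% and 9.62% of all genes (13.2% together). With each library scaled to the same sum 4 were called higher and 11 lower, beside 42 and 1414 of all 15400 genes. The median change of the 124 was 0.61, against 0.37 for all genes. The count fell to 19 without KO-labelled P replicate 1, 20 without its replicate 2, 25 without WT P replicate 1 and 24 without WT P replicate 2.

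The tRNA charging genes known as ATF4 targets (aminoacyl-tRNA synthetases and the tRNA exporter Xpot) were the one list of the 11 with every tested gene called. All 13 were called higher at P with spike-in scaling, with all 3 KO-labelled libraries above all 3 WT libraries and changes of 0.63 (Lars) to 2.05 (Iars), and 8 were called higher after median-ratio scaling. Of all genes 24.6% were called higher (3.57% after median ratios), and 36.4% had all 3 libraries above. The median change of the 13 was 1.01, against 0.37 for all genes. Iars, isoleucyl-tRNA synthetase, went from 44.7 ± 8.18 to 187 ± 7.85 (change 2.05, SE 0.24, adjusted p = 0.000522 in limma), and Mars, methionyl-tRNA synthetase, from 108 ± 29.6 to 426 ± 24.8 (2.01, SE 0.24, adjusted p = 0.000522). The summed level of the 13 was 248 to 341 in WT LZ, 210 to 272 in KO-labelled LZ, 938 to 1287 in WT P and 2383 to 2795 in KO-labelled P. The 13 calls became 7 without KO-labelled P replicate 2 or without WT P replicate 2, 8 without replicate 1 of either genotype, and 4 after scaling each library to the same total. That last scaling called 42 of all 15400 genes higher and 1414 lower.

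Among 8 other cytosolic synthetases, which are not known as ATF4 targets, 5 were called higher and 0 lower with a median of 0.67. After median-ratio scaling 0 were called. For all genes the shares were 24.6% higher and 14.3% lower, and 3.57% and 9.62% after median ratios. Dars (aspartyl-tRNA synthetase) rose by 0.79 (SE 0.22, adjusted p = 0.0195) and Hars (histidyl-tRNA synthetase) by 0.86 (SE 0.27, adjusted p = 0.0293), and these 5 calls became 0 without replicate 1 or replicate 2 of either genotype. A difference between the 2 synthetase lists was not tested.

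Upstream of ATF4, 8 of 16 eIF2alpha kinases and regulators were called higher and 1 lower (1 and 0 after median ratios). For all genes the shares were 24.6% higher and 14.3% lower (3.57% and 9.62% after median ratios). Eif2b5, a subunit of the nucleotide exchange factor that phosphorylated eIF2alpha blocks, rose from 185 ± 31.8 to 364 ± 53.1 (0.97, SE 0.24, adjusted p = 0.015). Eif2ak3, the endoplasmic reticulum stress kinase PERK, fell by 1.19 on the log2 scale, from 2.5 ± 1.51 to 0.437 ± 0.21 (adjusted p = 0.0188), a call lost after median ratios. Among 10 partners and related factors, 3 were called higher and 1 lower. Atf3, a stress-induced factor downstream of ATF4, went from 2.06 ± 1.33 to 8.39 ± 1.88 (1.72, SE 0.56, adjusted p = 0.0318, lost after median ratios). Nfe2l2, which encodes the antioxidant regulator NRF2, went from 20.2 ± 2.02 to 9.02 ± 3.09 (-1.12, SE 0.28, adjusted p = 0.0147).

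Among genes of amino acid supply most synthesis genes were not called, as was so for all genes, of which 38.8% were called. Of 12 genes of amino acid synthesis and one-carbon metabolism, 2 were called higher and 1 lower, and 9 did not pass. Of all genes 24.6% were called higher and 14.3% lower. Aldh18a1, which starts proline synthesis, went from 8.65 ± 2.14 to 25.2 ± 1.91 (1.46, SE 0.34, adjusted p = 0.0117), and Phgdh, which starts serine synthesis, from 39.3 ± 3.2 to 11.6 ± 6.53 (-1.84, SE 0.38, adjusted p = 0.0077). Of 6 other transporters, 3 were called higher and 1 lower. Slc38a2, which carries small neutral amino acids, went from 9.05 ± 4.49 to 21.1 ± 1.57 (1.24, SE 0.37, adjusted p = 0.0238), and Slc1a5, the glutamine transporter of the Slc1a4 family, from 5.45 ± 0.3 to 2.32 ± 0.881 (SE of the change 0.26, adjusted p = 0.0171). After median ratios Phgdh and Slc1a5 were still called lower and Mthfd2, of mitochondrial one-carbon metabolism, still higher (0.57, adjusted p = 0.019), while the calls of Aldh18a1 (1.04, adjusted p = 0.0584) and Slc38a2 (0.82, adjusted p = 0.113) were lost.

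Of 11 other targets of ATF4 and CHOP, 2 were called higher and 1 lower, with a median of 0.00, below that of all genes. For all genes the shares were 24.6% higher and 14.3% lower (3.57% and 9.62% after median ratios). Eif4ebp1, a translation inhibitor that ATF4 is known to induce, went from 157 ± 19.3 to 29.8 ± 8.85 (-2.40, SE 0.24, adjusted p = 0.00023), and Vegfa from 1.57 ± 0.175 to 5.13 ± 1.79 (1.21, SE 0.27, adjusted p = 0.0098, lost after median ratios at 0.0798). Eif4ebp1 thus lay on the side of Trib3 and Asns. Of 11 glutathione genes, 3 were called higher and 1 lower (1 and 2 after median ratios). Gclc, the first enzyme of glutathione synthesis, went from 80.4 ± 25.8 to 177 ± 23.9 (1.18, SE 0.25, adjusted p = 0.00914), and Gsr, which regenerates reduced glutathione, from 46.1 ± 14.4 to 10.3 ± 7.03 (-2.29, SE 0.49, adjusted p = 0.00895). Chac2, the constitutive relative of Chac1, went from 61.6 ± 12.4 to 128 ± 18 (1.05, SE 0.34, adjusted p = 0.031, lost after median ratios at 0.294).

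Neighbouring stress pathways had calls in both directions, as had all genes (24.6% higher and 14.3% lower, and 3.57% and 9.62% after median ratios). Of 16 endoplasmic reticulum chaperones and genes of the other unfolded protein response arms, 6 were called higher and 1 lower (1 and 0 after median ratios). Sdf2l1, a chaperone cofactor, went from 1242 ± 230 to 2313 ± 479 (0.89, SE 0.25, adjusted p = 0.0202), and Ern1, the sensor IRE1, from 1.52 ± 0.667 to 0.323 ± 0.239 (-0.91, SE 0.33, adjusted p = 0.0458). Neither was called after median ratios. Of 10 mitochondrial chaperones and proteases, 4 were called higher and 2 lower. The 2 lower ones were the paired chaperonins Hspe1 (775 ± 205 to 264 ± 82, -1.57, SE 0.28, adjusted p = 0.00359) and Hspd1 (68.7 ± 5.02 to 30.2 ± 7.08, -1.18, SE 0.24, adjusted p = 0.00694).

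Relatives of the 8 genes were a final list, with 4 of 11 called higher and 0 lower at P, beside 24.6% and 14.3% of all genes. Slc1a3, a glutamate transporter of the Slc1a4 family, went from 22.7 ± 5.77 to 45.1 ± 6.55 (0.98, SE 0.30, adjusted p = 0.0271, lost after median ratios at 0.256), and Asnsd1, which shares a domain with Asns, from 753 ± 185 to 1465 ± 230 (0.97, SE 0.21, adjusted p = 0.0088). Asnsd1 and Asns thus had opposite signs at P. The round spermatid, pachytene and spermatogonial markers given above moved in the same libraries, and their part in these list counts was not tested.

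**Figure D4:**
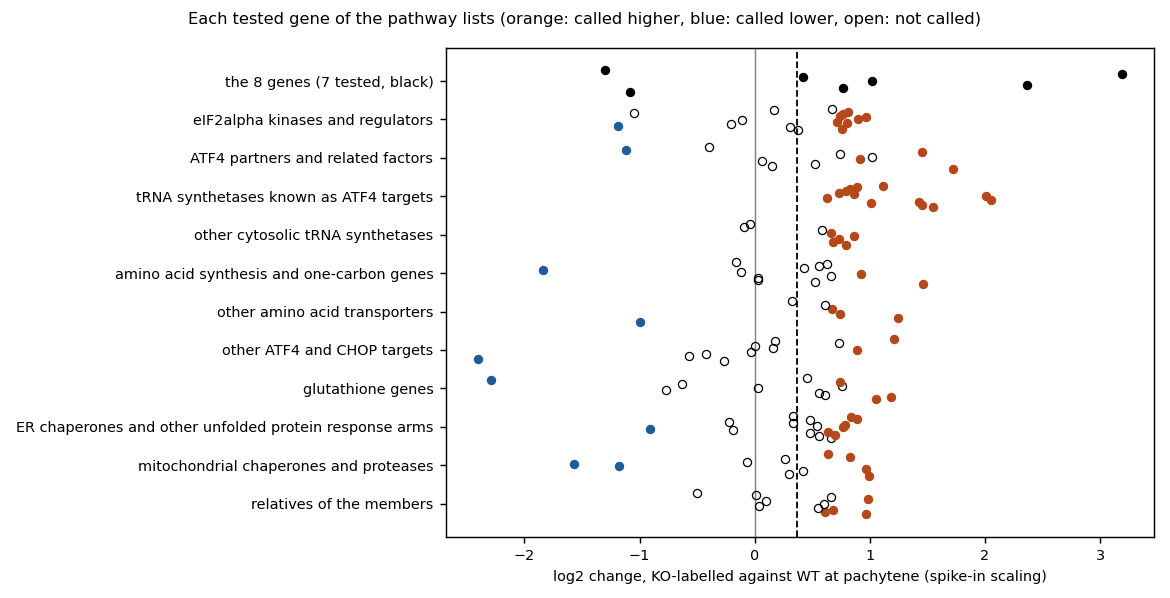
Log2 change at P (KO-labelled against WT, spike-in scaling) of each of the 124 tested genes of the 11 pathway lists and of the 7 tested genes of the ATF4 set (black), 1 row per list. Filled orange points were called higher, filled blue points lower and open points were not called, and the dashed line is the median of all genes (0.37). All 13 tRNA charging genes known as ATF4 targets lie to its right.

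At LZ, 0 of the 124 other pathway genes were called higher and 8 lower, beside 0.136% and 12.9% of all genes, and their median of -0.42 was that of all genes (-0.43) within 0.01. The counts after rescaling by median ratios were 0 and 1, where 1.08% of all genes were called, 0.688% lower. Of the 8, 3 were glutathione genes, with Gpx4, which reduces lipid peroxides, at -1.27 (SE 0.26, adjusted p = 0.0178) and Gss, glutathione synthetase, at -1.19 (adjusted p = 0.0332). Slc6a9, a glycine transporter, went from 1.92 ± 0.276 to 0.481 ± 0.0218 (-0.97, SE 0.23, adjusted p = 0.022), and it was the gene still called after median ratios (-0.96, adjusted p = 0.0396). Slc1a2, another glutamate transporter of the Slc1a4 family, was at 4.28 ± 1.2 and 0.706 ± 0.538 (-1.66, SE 0.36, adjusted p = 0.0191), and after median ratios its change was -1.73 (adjusted p = 0.0561). None of the 13 tRNA charging genes was called at LZ, with Gars, glycyl-tRNA synthetase, at -0.29 (adjusted p = 0.345). The 8 calls became 0 without KO-labelled LZ replicate 3, WT LZ replicate 1 or WT LZ replicate 2, 1 without KO-labelled LZ replicate 2 and 16 without WT LZ replicate 3.

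From LZ to P in WT, 102 of the 124 were called higher and 0 lower, beside 80.9% and 0.487% of all genes (81.4% together), with a median of 1.68 against 1.64. Rescaled by median ratios, 18 were called higher and 31 lower, beside 20.4% and 17.8% (38.2% together). Nupr1, a stress-induced partner in the ATF4 pathway, had the largest change among the genes named for these lists, 5.44 (SE 0.28, adjusted p = 3.01e-08), and stayed called after median ratios (4.08). Chac2 rose by 3.85 (SE 0.34, adjusted p = 2.85e-07) and Cebpg, a partner of ATF4, by 3.32 (SE 0.25, adjusted p = 8.99e-08). Calr, the chaperone calreticulin, turned from 0.74 to -1.31 with the scaling, and 9 of the 16 endoplasmic reticulum genes were called lower after median ratios. Leydig, peritubular and macrophage markers were also higher in WT P than in WT LZ, and their part in these counts was not tested. In KO-labelled libraries 106 of the 124 were called higher from LZ to P and 3 lower, beside 76.8% and 2.83% of all genes (79.6% together).

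The signed change from WT to KO-labelled was more positive at P than at LZ for 62 of the 124 and more negative for 3, beside 34.9% and 3.49% of all genes (38.4% together), with a median of 0.99 against 0.72. After median ratios the counts were 6 and 8, beside 2.37% and 4.36% (6.73% together). All 13 tRNA charging genes were among the 62, and 4 of them were called after median ratios. Iars (2.04, SE 0.34, adjusted p = 0.00493) and Mars (1.98, SE 0.33, adjusted p = 0.00493) kept the call after median ratios, at 1.10 (adjusted p = 0.0388) and 1.04 (adjusted p = 0.0243).

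Genes whose pattern over the 12 libraries was most like that of Chac1 were ranked by Pearson's r of log2(value + 1) after median-ratio scaling. The ranking held the 12420 genes with a spike-in-scaled mean of at least 5 in at least 1 group. The libraries share 4 groups and each has its own depth, so r is given as a description. The 5 highest were D6Ertd527e (0.824), Tomm34 (0.797), Srd5a1 (0.78), 1700028B04Rik (0.78) and Zfp707 (0.779). Of these, D6Ertd527e (mean 1.64 in WT P and 5.06 in KO-labelled P) and 1700028B04Rik (1.87 and 7.01) passed the filter only through KO-labelled P. Chac1 is high in that group, so their likeness was set in part by the filter. Tomm34, a co-chaperone of mitochondrial import, went from 255 ± 30.9 in WT P to 405 ± 67.3 in KO-labelled P, and Srd5a1, a steroid reductase, from 10.1 ± 2.07 to 22.2 ± 6.55. Of the 8 genes, Slc1a4 was the most like Chac1 at 0.543, followed by Atf4 at 0.31 and Ddit3 at 0.204. Sesn2 was at 0.00706 and Slc7a11 at -0.0572, while Asns (-0.313) and Trib3 (-0.358) ran the other way.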

How the data were processed

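The deposited values are FPKM per gene, which the authors scaled by spike-in RNA; per the submitters' processing notes TopHat2 2.1.1, Cufflinks 2.2.1 and the build mm9 were used. The formula of the scaling and the annotation are not given in the sources used here. Of the table's columns, 12 carry a library name and were used, and 4 without a name were not. Values were taken as log2(value + 1), and genes with at least 1 in at least 3 libraries (15400) were fitted in limma 3.58.1 under R 4.3.3, with 1 mean per group and moderated variances that follow the mean. Genes were called at a Benjamini-Hochberg adjusted p under 0.05. The members and lists were chosen with earlier results of these data known. In each list and comparison up to 2 called genes with the largest change relative to the median were named or, where none was called, the tested gene with the highest mean; the genes at the ends of a range and those singled out beside them were named after their values were seen. The depth of the libraries is unknown beyond the relative value of 1 fragment: of 400 low genes, 287 (71.8%) gave whole fragments in all libraries within 0.05. Alternatives were other scalings, filters and pseudocounts, a replicate block, a fit of the compared groups alone, and leaving out each library.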

Additional observations from a re-analysis of the deposited data

Results flagged for a closer look

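Ddit3 had opposite differences between genotypes at the 2 stages: every KO-labelled library was below every WT library at LZ (log2 change -0.78) and above every WT library at P (1.02). Of all tested genes 36.5% had all 3 KO-labelled libraries below at LZ and 36.4% had all 3 above at P, with medians of -0.43 and 0.37. After median-ratio scaling the Ddit3 changes were -0.20 and 0.67. The difference between them was not tested, since values at P are taken to have chosen Chac1 and Slc1a4.

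Among the other pathway genes named for the difference between the KO effect at P and at LZ, all values here are that difference on the log2 scale and passed the limma test of it. Negative were 3 of them: Impact, an inhibitor of the eIF2alpha kinase GCN2, at -1.83 (adjusted p = 0.0241), Nfe2l2 at -1.29 (adjusted p = 0.0219) and Eif4ebp1 at -1.76 (adjusted p = 0.00509). After median-ratio scaling they were at -2.42, -2.03 and -2.60 and still called.

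The positive ones among tRNA synthetases were Iars at 2.04, Mars at 1.98, Hars at 1.54 and Dars at 1.33. Among eIF2 regulators and partners they were Eif2b4 at 1.71 and Cebpg at 1.22. Among genes of amino acid supply and relatives of the members they were Aldh18a1 at 1.74, Mthfd2 at 1.58, Slc6a9 at 1.64, Slc3a2 at 0.98, Slc1a2 at 1.76 and Asnsd1 at 1.68. Herpud1 was at 1.79, Gpx4 at 2.01, Ggct at 1.71, Sel1l at 1.37, Sdf2l1 at 1.35, Hspa9 at 1.48 and Trap1 at 1.34. Of these positive ones, Iars, Mars, Slc6a9 (1.26) and Herpud1 (0.88) were still called after median-ratio scaling.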

How the results depend on the processing

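The counts of called pathway genes depended on the scaling and on single libraries. After median-ratio scaling the count of 8 at LZ became 1, that of 62 at P became 25, that of 102 from LZ to P in WT became 49 and that of 65 for the difference of KO effects became 14. With each library scaled to the same sum the counts were 1, 15, 52 and 11, with the split moved towards lower calls: 4 higher and 11 lower at P (against 53 and 9), 9 and 43 between stages in WT (against 102 and 0), and 1 and 10 for the difference (against 62 and 3). The split of all 15400 tested genes moved the same way. With equal sums it was 42 higher and 1414 lower at P, 2103 and 3829 between stages in WT, and 91 and 861 for the difference. Fitting only the 2 LZ groups called 0 of the 124 in limma (40 at an unadjusted p under 0.05), and a pseudocount of 5 called 4. Leaving out 1 library gave 0 to 16 calls at LZ, 19 to 68 at P, 92 to 100 between stages in WT and 52 to 68 for the difference. Asns from LZ to P in WT turned from 1.05 to -0.96 after median ratios and -1.23 with equal sums, and the difference of KO effects for Slc1a4 from 2.11 to -0.06 with equal sums. The Slc1a4 call at LZ was also lost without a filter (adjusted p = 0.0576) and with a pseudocount of 5 (0.35, adjusted p = 0.113), and leaving out 1 library gave 0.75 to 1.35. The cause of these shifts was not tested.

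Over all genes the calls at LZ went from 2013 to 166 after median ratios, 277 with equal sums, 904 without a filter, 1108 with a pseudocount of 5, 0 with only the 2 LZ groups fitted (4682 at an unadjusted p under 0.05) and 4 to 2936 without 1 library. At P they went from 5980 to 2032, 1456 with equal sums, and 1348 to 6952 without 1 library. From LZ to P in WT they went from 12530 to 5883 and 5932, and for the difference from 5919 to 1036 and 952.

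Deviations of same-numbered libraries from their group means were weakly correlated (-0.167 to 0.219). KO-labelled LZ was not set against KO-labelled P here, and such correlations cannot show whether libraries share an animal or a batch. With the replicate number as a block the 4 counts were 8, 52, 102 and 63, and the Slc1a4 call at LZ had an adjusted p = 0.0369 in limma.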
